A study of Mus musculus with 12 samples.

Results

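The transcription factor genes Tcf7, Lef1, Sox4, Bcl11b and Myb were followed through sorted mouse thymocytes with and without Satb1. The 5 genes were chosen by name as factors that keep T lineage identity, and all 5 of the 49997 genes in the count tables were found and passed the low-count filter in every comparison. The 4 groups of 3 libraries each were sequenced from poly(A) RNA: DP cells with a tamoxifen-induced Satb1 knockout (DP KO), DP cells of tamoxifen-treated WT thymus (DP WT), CD4 cells with the same knockout (CD4 KO) and CD4 cells of tamoxifen-treated WT thymus (CD4 WT). DP thymocytes carry both co-receptors, and CD4 thymocytes are a later stage that keeps CD4. All groups had received tamoxifen, the drug that switches on an inducible Cre recombinase. No source used here names the Cre line, the deleted exons, the strain, the age or the sort gates. SATB1, the protein made by Satb1, anchors and folds chromatin in the T cell nucleus.

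TCF1 (encoded by Tcf7) and LEF1 are related DNA-binding proteins with an HMG box, and SOX4 carries an HMG box of the SOX type. TCF1 and LEF1 act with beta-catenin as activators of Wnt target genes or with Groucho/TLE proteins as repressors, and they open chromatin at T cell genes. BCL11B is a zinc finger protein that completes T lineage commitment, recruits the NuRD repressor complex and keeps natural killer genes silent. MYB is needed in mouse DP cells for survival and for rearrangement of the T cell receptor alpha gene, and later for the CD4 lineage through Gata3.

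Total counts ran from 22790504 to 62422640 per library, and no replicate pair agreed within sampling noise (chi-square over its degrees of freedom, 15.2 to 50.8). Whether replicates are separate mice is not stated in the labels, and the p-values therefore reflect just the scatter among the sequenced libraries, which may be technical. Satb1 itself was at 2497, 2875 and 2456 CPM in DP KO and at 3891, 3834 and 3875 CPM in DP WT. In CD4 KO it was at 1482, 1546 and 1470 CPM, against 3515, 3301 and 3002 CPM in CD4 WT. CPM is the count divided by the TMM-scaled library total and is given as counts per 1000000 counts. Satb1 was lower in every KO library than in every WT library of its cell type (log2 fold change -0.56 ± 0.08 in DP and -1.12 ± 0.08 in CD4; adjusted p = 0.000539 and 7.89e-06). A count over the whole gene does not measure the extent of the deletion. The 8 DP markers summed to 7356 to 7612 CPM in DP KO, 12357 to 13451 in DP WT, 2649 to 3235 in CD4 KO and 1478 to 1915 in CD4 WT. The 6 CD4 markers summed to 1333 to 1439 CPM in CD4 KO and 2429 to 2693 in CD4 WT, against 1144 to 1183 in DP KO and 1396 to 1506 in DP WT. Cd4 itself is in both marker lists. Of the 6 CD4 markers 5 were called higher and 1, Cd4, was called lower in CD4 KO than in DP KO. Over all genes 13.9% were called higher and 7.82% lower there. The same 5 were higher and Cd4 was lower in CD4 WT than in DP WT, beside 28.0% higher and 27.1% lower over all genes. Markers of B cells summed to 20.9 to 26.2 CPM in DP KO, 16.4 to 21.2 in DP WT, 20.1 to 30.1 in CD4 KO and 6.27 to 17.3 in CD4 WT, and their part in the results was not tested. Xist is transcribed from the inactive X chromosome of female cells, and Ddx3y lies on the Y chromosome. DP WT replicates 1 and 2 had 0.273 to 0.845 CPM of Xist, against 190 to 601 CPM in the other 10 libraries, and their Ddx3y was at 110 to 127 CPM, against 40.4 to 118. Each of the other 10 libraries held both transcripts, and whether they mix female and male cells was not tested. The DP KO and DP WT libraries thus differed in these sex-linked transcripts, and in DP replicates 1 and 2 sex makeup and genotype cannot be told apart for any KO against WT value. The same DP WT libraries enter the interaction and the comparison of CD4 with DP in WT. In the latter, sex makeup and cell type cannot be told apart for them. DP WT replicate 3 was among the libraries with Xist. It served as the lone DP WT library in an alternative fit that is given wherever it ended a call; the lone library is there assumed to vary like the other group.

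Lef1, Sox4 and Myb were lower in DP KO, and they moved in different directions in CD4 KO. They are also the 3 with a RefSeq start at the outermost start in the count table. The 250 bases before that start are shown, as RefSeq gives them. Capitals mark 4 motifs, each searched on both strands. The core of TCF/LEF sites was taken as CTTTG. For MYB sites the core was AACNG. For the GC box it was GGGCGG, and the last was the CCAAT box.
Lef1, plus strand, chr3:131110047-131110296 (GRCm38): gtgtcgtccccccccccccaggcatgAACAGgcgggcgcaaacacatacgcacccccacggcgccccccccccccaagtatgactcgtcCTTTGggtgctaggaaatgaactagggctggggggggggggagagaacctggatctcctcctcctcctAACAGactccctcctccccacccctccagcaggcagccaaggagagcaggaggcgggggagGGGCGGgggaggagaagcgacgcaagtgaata
Sox4, minus strand, chr13:28953700-28953949 (GRCm38): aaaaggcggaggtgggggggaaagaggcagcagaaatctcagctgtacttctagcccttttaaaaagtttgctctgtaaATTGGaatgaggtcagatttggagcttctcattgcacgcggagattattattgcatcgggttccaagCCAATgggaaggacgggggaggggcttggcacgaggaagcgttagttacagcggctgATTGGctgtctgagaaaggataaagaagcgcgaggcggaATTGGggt
Myb, minus strand, chr10:21160985-21161234 (GRCm38): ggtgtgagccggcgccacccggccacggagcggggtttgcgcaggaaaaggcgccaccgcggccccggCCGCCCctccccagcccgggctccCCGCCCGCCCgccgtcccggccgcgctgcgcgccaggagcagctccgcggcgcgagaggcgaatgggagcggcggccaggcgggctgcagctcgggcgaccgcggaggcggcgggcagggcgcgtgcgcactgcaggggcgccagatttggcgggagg

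The Lef1 stretch held 1 TCF/LEF core, 2 MYB cores and 1 GC box. The Sox4 stretch held 4 CCAAT boxes and no match of the other motifs. In the Myb stretch 3 GC boxes were found, 2 of them overlapping, and no match of the other motifs. Of the 32817 RefSeq windows of the same length, 48.6% held the TCF/LEF core, 74.2% the MYB core, 32.7% a GC box and 33.8% a CCAAT box. At least 4 CCAAT boxes were in 0.835% of the windows and at least 3 GC boxes in 8.47%. GC content was 66.4% for Lef1, 50.8% for Sox4 and 81.2% for Myb, against a median of 52.4%. A match describes letters and is not a measured binding site. All RefSeq starts of Tcf7 and Bcl11b lie inside the span that the count table gives these genes, and their windows are not shown. Lef1 has further RefSeq starts 26, 2494 and 45997 bases inside its outermost start, also not shown. The window before the innermost of these held 3 TCF/LEF cores and 3 MYB cores. At least 3 of these cores were in 3.94% and 19.3% of the windows. The Lef1 windows before the starts 26 and 2494 bases inside held 2 and 1 TCF/LEF cores, and 2 and 0 MYB cores. Both Tcf7 windows held 0 TCF/LEF cores, with 1 and 2 MYB cores. The Bcl11b window held 1 TCF/LEF core and 3 MYB cores.

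The first comparison asked what loss of Satb1 did to these genes in DP cells. Myb, Tcf7, Lef1 and Sox4, 4 of the 5, were lower in DP KO and none was higher, while Bcl11b did not pass the test. Of all 16776 genes tested, 30.8% were called at an adjusted p under 0.05 and 14.1% were called lower (edgeR quasi-likelihood test, Benjamini-Hochberg adjustment over all genes). The 5 log2 fold changes had a median of -0.43, beside 0.01 over all genes tested. In 45.4% of genes the KO and WT libraries did not overlap. In bulk RNA, fewer cells of a type that express a gene and less RNA per cell cannot be told apart.

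Myb (chromosome 10, 21124930 to 21160984 in mm10, minus strand, 16 merged exons) showed the largest change of the 5 in DP cells. It had 658, 688 and 641 CPM in DP KO replicates 1, 2 and 3, against 1207, 1143 and 1308 CPM in DP WT. Every KO library lay below every WT library, and the 3 same-numbered batches gave log2 ratios of -0.87, -0.73 and -1.03. The log2 fold change was -0.87 ± 0.07 (SE), or 0.548-fold (adjusted p = 2.88e-05). This call held under each of the alternatives run, with DP WT replicate 3 alone included.

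Tcf7 (chromosome 11, 52246527 to 52283383, minus strand, 16 merged exons) was by far the most abundant of the 5. Its level was 3670, 3738 and 3301 CPM in DP KO and 5097, 5043 and 4670 CPM in DP WT, with no overlap. Its log2 fold change was -0.46 ± 0.08 (adjusted p = 0.00164), and the batches gave -0.47, -0.43 and -0.50. With DP WT replicate 3 as the only DP WT library it was -0.39 and not called (adjusted p = 0.0794). Tcf7 is transcribed from several starts into long forms that bind beta-catenin and short forms that do not, and the counts add them up. A further 332 bases, 3.03% of its exons, overlap Skp1 on the opposite strand. No source used here gives the strand setting of the counting, and Skp1 itself had 4830 to 10088 counts.

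Lef1 (chromosome 3, 131110297 to 131224357, plus strand, 14 merged exons) had 189, 206 and 156 CPM in DP KO, against 253, 222 and 273 CPM in DP WT. The groups did not overlap but came close, at 206 CPM for the highest KO library and 222 CPM for the lowest WT library. Its log2 fold change was -0.43 ± 0.11 (adjusted p = 0.0181), with -0.42, -0.11 and -0.81 in the 3 batches. Without DP WT replicate 3 the adjusted p was 0.0527 (log2 fold change -0.37), and with that library as the lone DP WT it was 0.0619 (-0.57).

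Sox4 (chromosome 13, 28948919 to 28953699, minus strand, 1 exon) had 441, 514 and 536 CPM in DP KO and 695, 613 and 615 CPM in DP WT, again without overlap. On the log2 scale the change was -0.36 ± 0.09 (adjusted p = 0.0129), and the batches gave -0.66, -0.26 and -0.20, the largest being batch 1. The call was lost when DP KO replicate 1 (-0.27, adjusted p = 0.0609) or DP WT replicate 1 (-0.30, adjusted p = 0.0524) was left out. It was also lost with DP WT replicate 3 as the lone WT library (-0.31, adjusted p = 0.196).

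Bcl11b (chromosome 12, 107910403 to 108004145, minus strand, 9 merged exons) stood at 921, 898 and 894 CPM in DP KO, against 926, 915 and 903 CPM in DP WT. The ranges overlapped and all 6 libraries lay within a narrow band. The log2 fold change was -0.00462 ± 0.06 (adjusted p = 0.965), and its sign changed between alternatives.

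**Figure D1:**
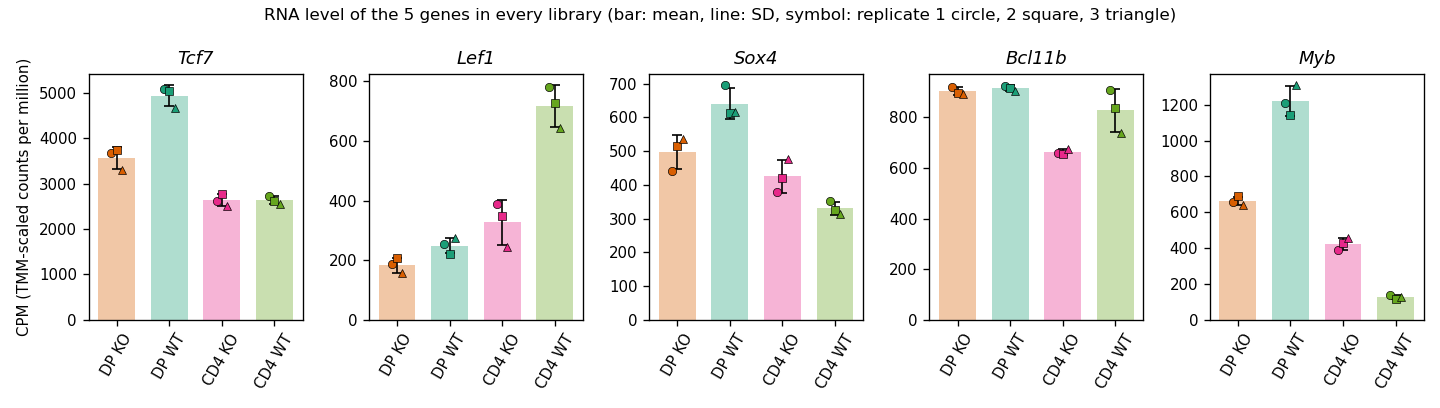
RNA level of Tcf7, Lef1, Sox4, Bcl11b and Myb in CPM (linear axes from 0) in DP KO, DP WT, CD4 KO and CD4 WT libraries. Bars are means, lines are SD over 3 libraries and symbols are single libraries. Myb lies at 641 to 688 CPM in DP KO and 1143 to 1308 CPM in DP WT, and at 389 to 456 CPM in CD4 KO and 118 to 136 CPM in CD4 WT, while Lef1 is highest in CD4 WT at 642 to 781 CPM.

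In CD4 cells the same loss of Satb1 moved the genes in different directions. Myb and Sox4 were higher in CD4 KO, Lef1 and Bcl11b were lower, and Tcf7 did not pass the test. Of 17316 genes tested 39.5% were called, 20.9% higher and 18.6% lower. The KO and WT libraries of 51.9% of genes did not overlap. The median of the 5 log2 fold changes was 0.00, as it was over all genes tested.

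Myb had 389, 426 and 456 CPM in CD4 KO, against 136, 118 and 128 CPM in CD4 WT. The lowest KO library was well above the highest WT library. The log2 fold change was 1.74 ± 0.08, or 3.33-fold (adjusted p = 1.27e-06), with 1.51, 1.85 and 1.83 in the 3 batches. Other sets of genes moved in the same libraries: the 8 DP markers, of which 6 were higher and 1 was lower in CD4 KO, and 23 of 23 cell cycle genes, which were higher. The cell cycle genes summed to 4143 to 4994 CPM in CD4 KO and 1643 to 2216 CPM in CD4 WT. Their part in the result for Myb was not tested.

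Sox4 had 379, 421 and 476 CPM in CD4 KO, against 352, 325 and 315 CPM in CD4 WT. The groups did not overlap, and the rise was small, at 0.36 ± 0.09 on the log2 scale (adjusted p = 0.0106). The batches gave 0.11, 0.37 and 0.59.

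Lef1 moved the other way, with 389, 348 and 243 CPM in CD4 KO, against 781, 727 and 642 CPM in CD4 WT. Replicate 3 was the lowest library of both groups, and no KO library reached the WT range. On the log2 scale it fell by 1.13, with an SE of 0.16, to 0.457-fold (adjusted p = 0.000397), and the batches gave -1.0, -1.06 and -1.40.

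Bcl11b had 658, 657 and 675 CPM in CD4 KO, against 907, 838 and 737 CPM in CD4 WT. The KO libraries were close together, and the WT libraries were spread over a wider range above them. Its log2 fold change was -0.32 ± 0.08 (adjusted p = 0.0134), with -0.46, -0.35 and -0.13 in the batches. The call was lost without CD4 KO replicate 1 (adjusted p = 0.0506), CD4 KO replicate 2 (0.0554) or CD4 WT replicate 1 (0.0573), at log2 fold changes of -0.30, -0.30 and -0.25.

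Tcf7 had 2629, 2781 and 2520 CPM in CD4 KO, against 2727, 2624 and 2561 CPM in CD4 WT. The groups overlapped, and the log2 fold change was 0.00476 ± 0.07 (adjusted p = 0.968).

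**Figure D2:**
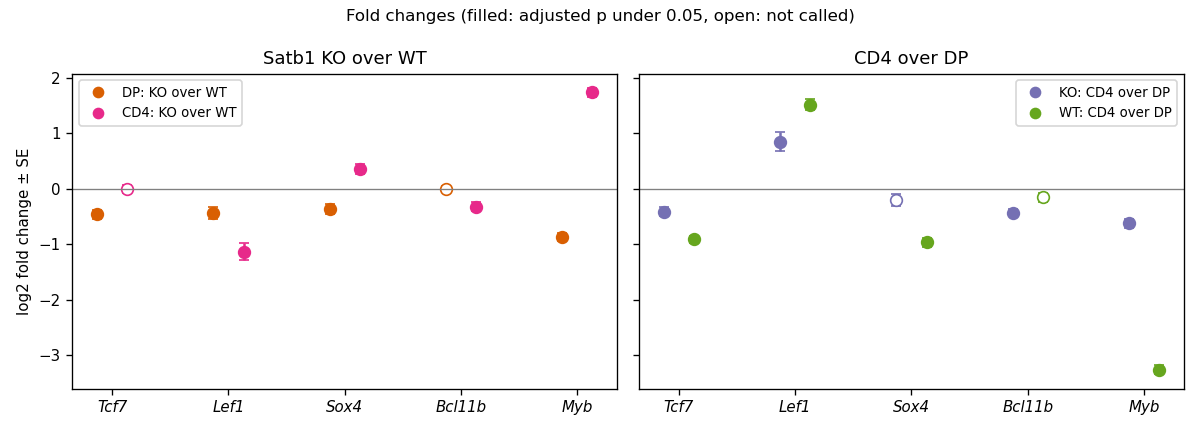
Log2 fold changes (points) with SE (lines) of the 5 genes for Satb1 KO over WT in DP and CD4 cells (left) and for CD4 over DP in KO and WT cells (right), with open points for genes that were not called. Myb lies at -0.87 in DP and 1.74 in CD4 on the left, and at -0.62 in KO and -3.26 in WT on the right.

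The difference between both knockout effects was tested as an interaction over all 12 libraries, in which 27.8% of 18431 genes were called. All 5 genes passed. Taken as the CD4 effect minus the DP effect, the difference was 2.62 ± 0.11 for Myb (adjusted p = 2.30e-08), 0.73 ± 0.13 for Sox4 (0.00114), 0.47 ± 0.10 for Tcf7 (0.00225), -0.69 ± 0.21 for Lef1 (0.0285) and -0.30 ± 0.10 for Bcl11b (0.0340). The values for Myb, Sox4 and Tcf7 passed under every alternative run. Lef1 did not pass without CD4 WT replicate 1 (-0.61, adjusted p = 0.0672), DP KO replicate 2 (-0.63, 0.0589) or DP WT replicate 2 (-0.64, 0.0622), nor with DP WT replicate 3 alone (-0.55, 0.197). Bcl11b lost its call in 6 of the 12 fits with 1 library left out: without CD4 KO replicate 1 (-0.32, adjusted p = 0.0531), CD4 KO replicate 2 (-0.33, 0.0519), CD4 WT replicate 1 (-0.22, 0.110), CD4 WT replicate 2 (-0.32, 0.0547), DP KO replicate 1 (-0.31, 0.0611) and DP WT replicate 2 (-0.33, 0.05). It also lost it with DP WT replicate 3 alone (-0.32, 0.146) and with scaling by total counts (-0.27, 0.0689).

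The step between the cell types was compared next, in KO and in WT cells. These comparisons share their libraries with the KO comparisons and are no further evidence for them. In KO cells Myb, Tcf7 and Bcl11b were lower in CD4 than in DP, Lef1 was higher and Sox4 did not pass. Of 16910 genes tested there 21.7% were called, 13.9% higher and 7.82% lower, and the groups of 40.1% did not overlap. In WT cells Myb, Sox4 and Tcf7 were lower in CD4, Lef1 was higher and Bcl11b did not pass. Of 17369 genes tested there 55.0% were called, 28.0% higher and 27.1% lower, and the groups of 62.7% did not overlap. DP WT replicates 1 and 2 differed from every CD4 WT library in Xist, so there sex makeup and cell type cannot be told apart. The share in KO cells rests on 3671 genes called. With the replicate number as a block 6420 genes were called, and 2212, 2251 and 2392 were called without CD4 KO replicate 1, CD4 KO replicate 2 and DP KO replicate 1.

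Myb showed the widest gap between both steps, with a log2 fold change of CD4 over DP of -0.62 ± 0.08 in KO cells (adjusted p = 0.000887) and -3.26 ± 0.08 in WT cells (adjusted p = 3.21e-09). In KO the CD4 level was 0.649 times that of DP cells, and in WT it was 0.104 times. The 4 groups did not overlap for Myb, in the descending order DP WT, DP KO, CD4 KO and CD4 WT. For Tcf7 the step was -0.41 ± 0.08 in KO cells (adjusted p = 0.00623) and -0.91 ± 0.07 in WT cells (adjusted p = 1.73e-06). Its order was DP WT, then DP KO, then both CD4 groups, which overlapped.

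Lef1 had a step of 0.85 ± 0.17 in KO cells (adjusted p = 0.00873) and 1.52 ± 0.10 in WT cells (adjusted p = 5.99e-07). CD4 WT was highest and DP KO lowest, and between them CD4 KO at 243 to 389 CPM overlapped DP WT at 222 to 273 CPM. For Sox4 the step was -0.20 ± 0.11 in KO cells (adjusted p = 0.219) and -0.96 ± 0.08 in WT cells (adjusted p = 2.60e-06). DP KO and CD4 KO overlapped in Sox4, at 441 to 536 and 379 to 476 CPM, between DP WT above and CD4 WT below. With the replicate number as a block the Sox4 step in KO cells was called (-0.21, adjusted p = 0.00628). For Bcl11b it was -0.43 ± 0.06 in KO cells (adjusted p = 0.00179) and -0.15 ± 0.08 in WT cells (adjusted p = 0.155), and both DP groups and CD4 WT overlapped while CD4 KO lay below them.

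Levels of different genes were compared per length, as RPKM (CPM per kilobase of merged exon). Tcf7 was first in every group, at 326 ± 21.5 in DP KO, 451 ± 21.2 in DP WT, 241 ± 12 in CD4 KO and 241 ± 7.68 in CD4 WT (mean ± SD RPKM, n = 3). Myb was next in DP KO at 175 ± 6.25, in DP WT at 323 ± 22.0 and in CD4 KO at 112 ± 8.78 RPKM, and it was last in CD4 WT at 33.7 ± 2.41 RPKM. Lef1 was last in DP KO and DP WT, at 40.5 ± 5.56 and 55.0 ± 5.70 RPKM, and next after Tcf7 in CD4 WT at 158 ± 15.4 RPKM. In CD4 KO, Lef1 at 53.6 to 85.8 RPKM overlapped both Sox4 at 79.2 to 99.5 and Bcl11b at 63.1 to 64.9 RPKM. Sox4 and Bcl11b also overlapped in CD4 WT, at 65.9 to 73.6 and 70.8 to 87.2 RPKM. The merged exons of all forms of a gene overstate the length of any 1 transcript.

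TCF1 and LEF1 bind the same sites, so the share of Lef1 in the RNA of the 4-gene TCF/LEF family was computed per length and per library. The family's other genes, Tcf7l1 and Tcf7l2, made up 0.390% to 0.491% in DP KO, 0.141% to 0.153% in DP WT, 0.521% to 0.613% in CD4 KO and 0.512% to 0.580% in CD4 WT. Lef1 made up 11%, 11.7% and 10.2% in DP KO and 10.7%, 9.59% and 12.4% in DP WT. In CD4 KO it made up 26.2%, 23.1% and 18.8%, against 40.6%, 39.8% and 37.5% in CD4 WT. The DP groups overlapped and the CD4 groups did not. The difference of KO minus WT was 0.0813 percentage points in DP (exact permutation test, two-sided p = 1.0) and -16.7 percentage points in CD4 (p = 0.1, exact permutation test), where 0.1 is the smallest p that 3 against 3 libraries allow. Without division by length the CD4 difference was -10.4 percentage points. The percentages thus depend on the merged exon lengths, 10946 bases for Tcf7 and 4533 for Lef1. On the log2 scale Tcf7l2 rose by 2.15 ± 0.28 in DP KO (adjusted p = 0.000412), with 6.86 ± 0.706 CPM in DP KO and 1.5 ± 0.639 CPM in DP WT. In CD4 KO it had 6.63 ± 0.942 CPM, against 5.53 ± 0.993 CPM in CD4 WT (adjusted p = 0.291). Tcf7l1 was lower in CD4 KO, at 2.62 ± 0.465 against 4.78 ± 0.396 CPM in CD4 WT (log2 fold change -0.86 ± 0.19, adjusted p = 0.00531).

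**Figure D3:**
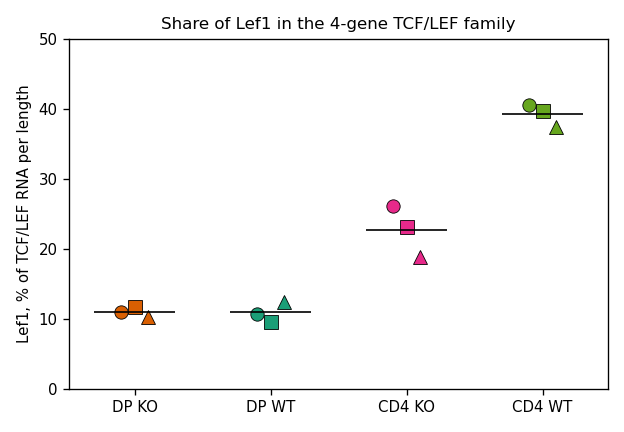
Lef1 as a percentage of the TCF/LEF family RNA (Tcf7, Lef1, Tcf7l1 and Tcf7l2, counts per length) in every library of the 4 groups, with replicates 1, 2 and 3 as circle, square and triangle and the group mean as a line. CD4 KO libraries lie at 18.8% to 26.2%, below CD4 WT libraries at 37.5% to 40.6%, and both DP groups lie at 9.59% to 12.4%.

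The counts of called genes in the lists that follow stand beside 16.7% higher and 14.1% lower over all genes in DP KO, and 20.9% higher and 18.6% lower in CD4 KO. Relatives and cofactors of TCF1 and LEF1, Tcf7l1 and Tcf7l2 among them, had 3 higher and 5 lower of 17 in DP KO and 2 higher and 8 lower of 16 in CD4 KO. Their median log2 fold changes were -0.01 and -0.29, beside 0.01 and 0.00 over all genes. The higher count in CD4 was 1 without CD4 KO replicate 1, 2 or 3 or CD4 WT replicate 1 or 2. Jup, which encodes the beta-catenin relative plakoglobin, had 5.69 ± 1.18 CPM in DP KO and 138 ± 14.7 CPM in DP WT (log2 fold change -4.59 ± 0.15, adjusted p = 1.24e-07). CD4 KO had 14.1 ± 7.32 CPM, against 59.6 ± 5.81 CPM in CD4 WT (-2.07 ± 0.32, adjusted p = 0.000740). Tle4, a Groucho-type corepressor, rose by 1.29 ± 0.09 in DP KO and fell by 0.30 in CD4 KO on the log2 scale. Bcl9, an adaptor of beta-catenin, was at 55.3 ± 9.36 CPM in CD4 KO and 130.0 ± 10.7 CPM in CD4 WT (log2 fold change -1.23 ± 0.12). In DP KO it had 43.3 ± 5.24 CPM, against 37.8 ± 4.84 CPM in DP WT (adjusted p = 0.238).

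Wnt targets, mostly feedback regulators but with Myc and Ccnd1 among them, had 7 tested members. Of these 3 were higher and 0 lower in DP KO, and 3 were higher and 2 lower in CD4 KO. Axin2, the scaffold that feeds back on beta-catenin, had 61.4 ± 3.41 CPM in DP KO and 31.7 ± 3.49 CPM in DP WT (log2 fold change 0.96 ± 0.10, adjusted p = 8.03e-05). In CD4 KO it had 91.6 ± 0.901 CPM, against 55.7 ± 1.16 CPM in CD4 WT (0.72 ± 0.06, adjusted p = 1.37e-05). Nkd1, an inhibitor of Dishevelled, rose by 2.95 ± 0.16 in DP KO and by 4.19 ± 0.35 in CD4 KO on the log2 scale, the CD4 WT level being 0.332 ± 0.0420 CPM. Myc, a growth regulator that is also in the list of MYB targets, rose by 2.02 ± 0.12 and 0.65 ± 0.11 in the DP and CD4 knockouts. The lower genes in CD4 KO were Znrf3 and Rnf43, which encode related ubiquitin ligases that remove Wnt receptors from the cell surface. Znrf3 had 36.3 ± 0.927 CPM in CD4 KO and 55.0 ± 1.48 CPM in CD4 WT (log2 fold change -0.60 ± 0.06, adjusted p = 8.41e-05). Rnf43 had 4.38 ± 1.04 CPM in CD4 KO and 11.7 ± 1.24 CPM in CD4 WT (-1.42 ± 0.18, adjusted p = 0.000243). Neither passed in DP KO, at 0.01 ± 0.10 for Znrf3 (adjusted p = 0.955) and -0.78 ± 0.32 for Rnf43 (adjusted p = 0.0993), and the model over all 12 libraries called Rnf43 lower there. Wnt receptors and the beta-catenin destruction complex had 1 higher and 4 lower of 17 in DP KO and 3 higher and 4 lower of 18 in CD4 KO. These shares called, 29.4% and 38.9%, were near the 30.8% and 39.5% over all genes. The count of lower genes was 1 without DP KO replicate 1 or 2 or DP WT replicate 1 or 3, and 1 or 2 without CD4 KO replicate 1 or 2 or CD4 WT replicate 1 or 2.

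Among relatives of SOX4, Sox13 rose by 1.56 ± 0.27 in DP KO (adjusted p = 0.00226) while in CD4 its log2 fold change was -0.32 ± 0.20 (adjusted p = 0.229, and 0.0497 without CD4 KO replicate 2). Sox5 was at 6.34 ± 1.70 CPM in CD4 KO and 1.02 ± 0.591 CPM in CD4 WT (log2 fold change 2.57 ± 0.39, adjusted p = 0.000724). In DP KO it had 0.107 ± 0.116 CPM, against 0.577 ± 0.161 CPM in DP WT (log2 fold change -2.27 ± 0.74, adjusted p = 0.0449). That DP call was lost without DP KO replicate 2 or 3 or any 1 DP WT library (adjusted p = 0.0589 to 0.123). Of the 4 tested relatives 1 was higher and 1 lower in DP KO. In CD4 KO 2 were higher, or 1 without CD4 KO replicate 1, CD4 KO replicate 2 or CD4 WT replicate 1, and 0 were lower.

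NuRD, the complex that BCL11B recruits, had with Bcl11a 14 tested genes, of which 2 were higher and 2 lower in DP KO and 6 higher and 2 lower in CD4 KO. The shares called were 28.6% in DP KO, near the 30.8% over all genes, and 57.1% in CD4 KO, beside 39.5%. In DP 1 was lower without DP KO replicate 1, DP KO replicate 2 or DP WT replicate 3, and 0 were lower with DP WT replicate 3 alone. Chd3, 1 of its remodelling ATPases, had 1033 ± 25.7 CPM in DP KO and 189 ± 5.70 CPM in DP WT (log2 fold change 2.46 ± 0.07, adjusted p = 4.12e-08). CD4 KO was lower, at 1148 ± 98.4 CPM, against 1525 ± 87.0 CPM in CD4 WT (-0.41 ± 0.08, adjusted p = 0.00392). Mta3, another subunit, rose by 0.94 ± 0.08 and 0.76 ± 0.07 in the DP and CD4 knockouts. The natural killer and innate genes, a class that BCL11B represses in mouse T cells, had 7 higher and 0 lower of 14 in DP KO (4 higher without DP KO replicate 1). In CD4 KO 3 were higher and 6 lower (1 higher without CD4 WT replicate 1 or 2). The list's median log2 fold change was 1.30 in DP and -0.50 in CD4. Klrd1, which encodes CD94 and belongs to a family of similar genes, had 3.14 ± 0.620 CPM in DP KO and 0.516 ± 0.323 CPM in DP WT. In CD4 KO it had 4.11 ± 0.645 CPM, against 8.85 ± 3.44 CPM in CD4 WT (adjusted p = 0.00123 in DP and 0.00846 in CD4). Id2, which encodes an inhibitor of E proteins, fell by 1.38 on the log2 scale in CD4 KO, with 50.3 ± 4.92 CPM in KO and 131 ± 5.54 CPM in WT.

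Both relatives of MYB were higher in CD4 KO. Mybl2 (B-MYB, a cell cycle regulator) had 63.8 ± 2.14 CPM in CD4 KO and 19.5 ± 4.74 CPM in CD4 WT (log2 fold change 1.72 ± 0.15, adjusted p = 2.78e-05), and Mybl1 (A-MYB) had 8.94 ± 1.65 CPM in CD4 KO and 2.37 ± 0.371 CPM in CD4 WT (1.92 ± 0.20, adjusted p = 6.09e-05). In DP KO neither passed (adjusted p = 0.557 for Mybl2 and 0.741 for Mybl1). Of the 6 relatives and coactivators 1 was higher and 1 lower in DP KO (0 lower without any 1 DP KO library or DP WT replicate 1 or 2), and 3 were higher and 1 lower in CD4 KO. Known MYB targets had 3 higher and 2 lower of 7 in DP KO (1 lower with DP WT replicate 3 alone), and 6 higher and 1 lower in CD4 KO. Gata3, a T lineage factor, rose by 1.68 ± 0.08 in DP KO and 0.45 ± 0.10 in CD4 KO. Kit, the stem cell factor receptor, rose by 1.54 ± 0.20 and 1.62 ± 0.10. Rag2, a subunit of the recombinase that cuts receptor genes, fell by 2.03 in DP KO and rose by 1.22 ± 0.13 in CD4 KO, the same signs as Myb. Rag2 is also among the 8 DP markers. Of these 7 were lower and 1 higher in DP KO, and 6 were higher and 1 lower in CD4 KO. Bcl2, a survival factor, fell by 2.03 in CD4 KO while Myb rose, and in DP KO it had 23.3 ± 2.74 CPM, against 27.0 ± 4.40 CPM in DP WT (adjusted p = 0.301).

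T lineage genes that TCF1 activates in mouse thymocytes had 2 higher and 5 lower of 10 in DP KO, and 3 higher and 6 lower in CD4 KO, with medians of -0.30 and -0.27. With DP WT replicate 3 as the lone WT library 1 was higher and 2 were lower in DP KO, and without DP WT replicate 2 there was 1 higher. Genes that TCF1 and LEF1 hold down in mouse T cells had 4 higher and 0 lower of 6 tested in DP KO, and 3 higher and 1 lower in CD4 KO, with medians of 2.91 and 0.85. Gzma, a granule protease, rose by 3.12 ± 0.13 in DP KO and 4.20 ± 0.24 in CD4 KO. Prdm1, which encodes BLIMP1, rose by 3.02 ± 0.18 and 1.53 ± 0.18 in the same comparisons. Gzmb, also a granule protease, rose by 3.59 ± 0.33 in DP KO and was not called in CD4 KO (-0.05 ± 0.28). Id2, also in this list, was the lower gene in CD4 KO (-1.38 ± 0.08) and was not called in DP KO (-0.30 ± 0.16). Regulators of progenitors and other lineages had 3 higher and 2 lower of 13 in DP KO (1 and 0 with DP WT replicate 3 alone), and 3 higher and 3 lower of 14 in CD4 KO.

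**Figure D4:**
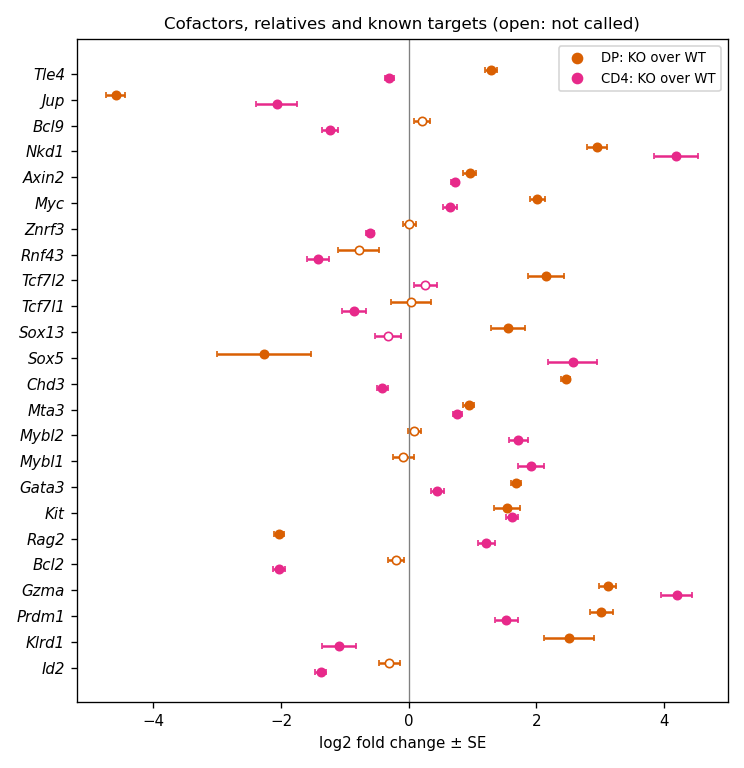
Log2 fold change of KO over WT (points) with SE (lines) in DP and CD4 cells for cofactors, relatives and known targets of the 5 factors, with open points for genes that were not called. Jup lies at -4.59 in DP and -2.07 in CD4, Chd3 at 2.46 and -0.41, and Rag2 at -2.03 and 1.22.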

How the data were processed

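RNA of 12 sorted thymocyte libraries (4 groups of 3) was sequenced by the submitters. The authors deposited raw read counts per gene in a DP table and a CD4 table of the same 49997 genes. The submitters' processing notes name mm10, Subread 1.0.1, DESeq2 and R 4.1.5, and no source used here gives the strand setting. Comparisons of CD4 with DP join both tables of raw counts. Counts were fitted in edgeR 4.0.16 (R 4.3.3) with TMM scaling, the filterByExpr filter and the quasi-likelihood test, using the libraries of the groups compared, or all 12 for the interaction. Genes were called at a Benjamini-Hochberg adjusted p under 0.05 over all genes tested, and SE is the log2 fold change divided by the root of the F statistic. RPKM divides CPM by the merged exon length of the DP table. A count of 3, taken as the floor, equals 0.0481 to 0.132 CPM. Alternatives used DESeq2 1.42.0, limma 3.58.1, other scalings, no filter, a replicate block, left-out libraries and DP WT replicate 3 alone. Drawn figures used matplotlib 3.10.9.

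The labels name a batch that equals the replicate number, so the number pairs libraries. Deviations from the group means had a median correlation of 0.157 for 18 same-numbered pairs (-0.00176 to 0.486) and -0.119 for 36 others. Deviations cancel out within a group, so positive values for same-numbered pairs push the others down. Same-numbered DP and CD4 libraries of the same genotype correlated at 0.147 to 0.486. The main fits of CD4 against DP and of the interaction treat these libraries as independent. The main KO against WT fits hold no batch term either, and the batch entered only the replicate block. On simulated data the fit recovered 95.2% of the genes changed by a log2 of 1 in the DP comparison and 80% in the interaction, and 100% of those changed by 2 in both. The simulation gave every gene the same spread, held no batch and changed only genes above a minimum mean count. Changes below a log2 of 1, the size of most knockout effects on the 5 genes, were not simulated.

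The 5 genes and the 12 gene lists were chosen with earlier results of these data known. Genes are named from each list by a rule of up to 3 members with the smallest adjusted p in each KO comparison. The text gives some of these, chosen after their values were seen, and adds other list members in the same way. Sequences are RefSeq's, on GRCm38.p6.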

Additional observations from a re-analysis of the deposited data

Results flagged for a closer look

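For all 5 genes the effect of the Satb1 knockout differed between CD4 and DP cells by the interaction test (edgeR quasi-likelihood test, Benjamini-Hochberg adjustment over all genes tested). In that test 27.8% of 18431 genes were called. The calls of Lef1 and Bcl11b did not hold under every alternative, while those of Myb, Sox4 and Tcf7 did. The CD4 effect minus the DP effect was 2.62 for Myb, 0.73 for Sox4, 0.47 for Tcf7, -0.69 for Lef1 and -0.30 for Bcl11b on the log2 scale. For Myb and Sox4 the effects had opposite signs, for Tcf7 the change was called in DP, for Bcl11b it was called in CD4, and for Lef1 the fall was larger in CD4.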

How the results depend on the processing

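Myb kept its direction and its call in all comparisons under every alternative, as did Sox4 and Tcf7 in the interaction and Lef1 and Sox4 in the CD4 knockout comparison. With the replicate block, Sox4 in CD4 against DP in KO became called (-0.21), as it did with no low-count filter (-0.24), and the genes called in that comparison numbered 6420, against 3671. The block changed no other call of the 5 genes. With DP WT replicate 3 as the only DP WT library, 1907 genes were called in DP and 3341 in the interaction; the calls lost were Tcf7 (-0.39), Lef1 (-0.57) and Sox4 (-0.31) in DP, and Lef1 (-0.55) and Bcl11b (-0.32) in the interaction. Scaling by total counts ended the Bcl11b interaction (-0.27).

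Leaving out 1 library each gave -0.53 to -0.31 for Lef1 in DP, -0.41 to -0.27 for Sox4 in DP, -0.40 to -0.25 for Bcl11b in CD4, -0.86 to -0.55 for Lef1 and -0.42 to -0.22 for Bcl11b in the interaction, and 2212 to 3951 genes called in CD4 against DP in KO. Signs turned where the change was near 0. Bcl11b in DP was 0.00436 with DP WT replicate 3 alone, 0.04 with no filter, 0.01 with total counts and -0.02 to 0.02 with a library left out. Tcf7 in CD4 was -0.00475 by DESeq2 and with its size factors, and -0.02 to 0.05 with a library left out. Uncalled in DP, Tcf7l1 was -0.11 with DP WT replicate 3 alone, -0.02 by limma-voom and with the block, and -0.34 to 0.25 with a library left out; Mybl1 was -0.21 to 0.07 with a library left out, Mybl2 was -0.02 and Znrf3 -0.19 with DP WT replicate 3 alone, and Znrf3 was -0.01 by DESeq2 and with its size factors, -0.000856 in 1 model over all 12 libraries and -0.08 to 0.10 with a library left out. The Lef1 share differed by -10.4 percentage points in CD4 without length correction, and by -0.562 to 0.824 in DP with a library left out. The causes were not tested. At these depths the spread between libraries, not the count of the 5 genes, limited the precision.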

Other observations

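Among 7910 well-expressed genes, the closest in pattern over the 12 libraries were chosen by the root mean square (RMS) difference of centred log2 CPM, which depends on the size of the changes. For Myb they were Prrt1 (RMS 0.206), Gtf2h4 (0.233) and Tspan2 (0.253). Prrt1 averaged 195 CPM in DP KO, 249 in DP WT, 97.7 in CD4 KO and 32.5 in CD4 WT. For Lef1 they were Ptk2b (0.125), Itgb2 (0.145) and Macf1 (0.151). Ptk2b, which encodes the kinase PYK2, averaged 128 CPM in DP KO, 185 in DP WT, 226 in CD4 KO and 463 in CD4 WT. For Tcf7 they were Cdkn2d (0.0785), Reep4 (0.0797) and Uspl1 (0.091), for Sox4 Spsb3 (0.0738), Zfp410 (0.0881) and Psma6 (0.105), and for Bcl11b Pag1 (0.0748), Klc4 (0.0791) and Zfp64 (0.08).

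Cell cycle genes had 0 higher and 5 lower of 23 in DP KO by edgeR, with 3 lower without DP KO replicate 2, DP WT replicate 1 or DP WT replicate 3, 2 without DP WT replicate 2, 11 without DP KO replicate 3 and 0 with DP WT replicate 3 alone. The share of cell cycle genes called in DP by edgeR was 21.7%, all with a fall. It was below the 30.8% called in either direction over all genes tested there. The share called lower, 21.7%, was above the 14.1% called lower over all genes, and 0 were called higher, beside 16.7%. The median log2 fold change of the list in DP was -0.21, beside 0.01 over all genes. Among the DN thymocyte markers, 3 were higher and 1 lower of 7 in DP KO, and 5 were higher and 1 lower in CD4 KO. These DN shares called were 57.1% and 85.7%, beside 30.8% and 39.5% over all genes. The DN marker sums were 827 to 1034 CPM in DP KO, 387 to 570 in DP WT, 757 to 986 in CD4 KO and 494 to 527 in CD4 WT.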
